A study of Mus musculus with 11 samples.

Results

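The 10 members described here belong to a pair of families of interferon-inducible GTPases. The guanylate-binding proteins are represented by *Gbp2*, *Gbp3*, *Gbp5*, *Gbp6*, *Gbp7* and *Gbp9*, and the immunity-related GTPases by *Irgm1*, *Irgm2*, *Igtp* and *Iigp1*. They were taken by gene name out of 55487 gene identifiers in the count files, with earlier results of these data already known. All 10 passed the filter of at least 10 counts over the 11 hearts, as did 24177 genes in all. The counts come from whole hearts of mouse embryos at E14.5, 1 library per heart: 5 hearts were Pde2A-/- (replicates A, B, 14, D and 15) and 6 were Pde2A+/+ (replicates 7, 11, 6, 8, H and E). Both genotypes came from crosses of heterozygous mice of the line B6;129P2-Pde2A<tm1Dgen>, so they share a mixed background. They differ by the targeted allele of *Pde2A*, a phosphodiesterase of cAMP and cGMP, and can differ by alleles inherited with it. The labels name no treatment. The allele was carried by the whole embryo, not by the heart alone. Embryos of both sexes were used, and the sex, the litter and the batch of single hearts are not stated, nor is it said whether hearts of a genotype came from separate litters. The p-values therefore set the difference between the genotypes against the spread between these hearts, taken as independent. Hearts of the same litter need not be independent. A difference of litter or batch between the genotypes could not be told apart from that of genotype.

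Guanylate-binding proteins are large GTPases of the dynamin superfamily. They assemble on vacuoles and membranes of intracellular bacteria and parasites, and several of them favour inflammasome activation. Immunity-related GTPases attack or protect the same membranes: *Irgm1*, *Irgm2* and *Igtp* (also called Irgm3) encode regulators that guard the cell's own organelles, and *Iigp1* (Irga6) encodes an effector that loads onto parasite vacuoles. Transcription of both families is low in most resting tissues and is known to rise strongly with interferon-gamma, through IFNGR1 and IFNGR2, JAK1, JAK2 and GAS elements, and less with type I interferons, through IFNAR1 and IFNAR2, JAK1, TYK2 and a complex with STAT2 and IRF9 that binds ISRE elements. IRF1, itself inducible by interferon, also binds ISRE-like elements. The question addressed was how these genes differ between the genotypes, beside genes known above all for one or the other kind of interferon.

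The sense strand of genes received 35865537 to 42835382 reads in each library. *Pde2a* had 7 counts in all hearts together and no more than 2 in any of them, 4 in Pde2A-/- and 3 in Pde2A+/+ hearts, so that it did not check the labels. Whether another annotated gene covers its exons, where reads would be in no count, was not examined. These counts therefore do not show that Pde2A+/+ hearts lack its transcript. The 8 cardiomyocyte markers were present in every heart, with a summed level between 30548 and 41662 CPM (counts scaled to the library size after TMM normalisation). Pde2A+/+ replicate 7 stood apart. It held transcripts of T and natural killer cells: *Cd3e* had 223 counts there and 0 in each other heart, *Gzma* 1799 against no more than 2, and the 16 markers of these cells summed to 111.7 CPM against 3.08 to 7.05 CPM in the other 10 hearts. The MHC class II gene *Cd74* had 30.01 CPM there and 1.07 to 2.74 CPM elsewhere. Results that rest on this heart are given with and without it.

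All 10 members had a higher mean in Pde2A-/- than in Pde2A+/+ hearts. At an adjusted p under 0.05, 9 of the 10 rose and 0 fell, where 8.93% of all genes tested rose and 5.67% fell (edgeR, quasi-likelihood test). The same 9 also had a fold change of at least 2, reached upwards by 2.21% of all genes. For 8 members, all of them among these 9, every Pde2A-/- heart lay above every Pde2A+/+ heart, as for 5.38% of all genes. The median log2 fold change of the 10 members was 1.48, beside −0.02 over all genes tested. Because the members were chosen with earlier results of these data known, their direction is no independent evidence. The largest changes were those of *Gbp3*, *Gbp6* and *Irgm1*. *Iigp1* did not pass. Without Pde2A+/+ replicate 7, 9 members rose, where 7.64% of all genes did, and 8 of them by at least 2-fold, where 2.31% did. The median was then 1.59.

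The upstream sequences of 5 members are shown because the same short elements recur in them. RefSeq start sites (GRCm38.p6) gave windows of 250 bases before to 50 bases after the start for 7 of the members, with 2 windows for *Gbp3*. *Gbp6*, *Gbp9* and *Iigp1* had no window. The elements searched on both strands were TTCNNNGAA, the GAS core, and an ISRE core, which is GAAA, any 2 bases and GAAA again (TTTC, any 2 bases and TTTC on the other strand). The GAS core is its own reverse complement. GAS and ISRE matches did not overlap in these windows, while neighbouring ISRE cores could share bases. The printed stretches end where annotated exons begin or at the start, and capitals mark GAS and ISRE matches. *Gbp5* is shown at chr3:142496684-142496899, *Gbp7* at chr3:142530086-142530335 and *Gbp3* at chr3:142559794-142560025, all on the plus strand. *Igtp* at chr11:58199306-58199555 and *Irgm2* at chr11:58214727-58214976 are also on the plus strand.
Gbp5: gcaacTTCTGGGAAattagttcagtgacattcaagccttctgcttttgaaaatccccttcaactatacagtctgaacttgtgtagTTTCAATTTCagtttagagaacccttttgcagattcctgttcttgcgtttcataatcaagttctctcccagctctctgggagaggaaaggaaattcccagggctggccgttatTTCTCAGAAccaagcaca
Gbp7: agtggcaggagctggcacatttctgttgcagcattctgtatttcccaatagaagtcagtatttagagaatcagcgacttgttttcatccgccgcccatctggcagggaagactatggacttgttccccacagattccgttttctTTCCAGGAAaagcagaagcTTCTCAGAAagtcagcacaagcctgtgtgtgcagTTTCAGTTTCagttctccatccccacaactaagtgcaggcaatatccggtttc
Gbp3: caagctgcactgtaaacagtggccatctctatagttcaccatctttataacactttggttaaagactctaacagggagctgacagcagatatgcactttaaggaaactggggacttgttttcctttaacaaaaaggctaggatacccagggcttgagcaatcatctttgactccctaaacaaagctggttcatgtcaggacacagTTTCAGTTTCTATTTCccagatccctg
Igtp: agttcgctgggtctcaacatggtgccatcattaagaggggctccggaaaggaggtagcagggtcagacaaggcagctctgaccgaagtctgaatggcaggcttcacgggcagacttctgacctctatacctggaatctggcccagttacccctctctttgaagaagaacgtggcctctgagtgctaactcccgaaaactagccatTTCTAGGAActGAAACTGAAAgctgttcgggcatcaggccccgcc
Irgm2: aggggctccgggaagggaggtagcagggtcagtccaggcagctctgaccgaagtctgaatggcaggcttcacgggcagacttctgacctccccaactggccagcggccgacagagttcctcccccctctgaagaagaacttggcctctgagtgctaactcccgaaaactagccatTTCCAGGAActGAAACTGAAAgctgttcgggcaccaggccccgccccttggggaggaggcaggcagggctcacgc

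At least 1 ISRE core was found in a window of each of the 7 members, beside 3.44% of 32851 promoter windows of this length. In *Gbp2* it lay at −59 to −50 from the start and in *Irgm1* a pair of overlapping matches lay from −30 to −15, both within annotated exons. GAS cores were found in *Gbp5* and *Gbp7* (2 each), *Igtp* and *Irgm2* (1 each), beside 8.30% of all windows. Both elements together occurred in these 4 members, and in 0.454% of all windows. *Igtp* and *Irgm2*, neighbours on chromosome 11, carried the same arrangement, a GAS core followed after 2 bases by an ISRE core, and 194 of 215 aligned bases of the sequences above were identical (90.2%). In *Gbp7* the ISRE core and in *Gbp3* the first of a pair of overlapping cores had the same letters, TTTCAGTTTC. The second window of *Gbp3* had no match of either kind. A match describes letters in a window and is not a measured binding site.

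**Figure D1:**
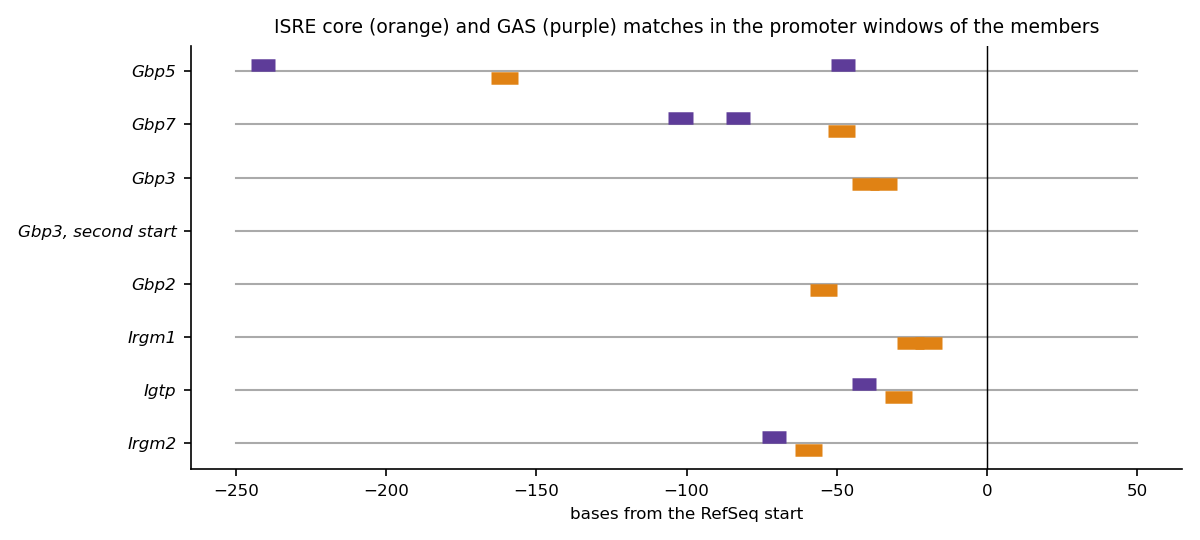
Positions of ISRE core matches (orange) and GAS matches (purple) on grey lines for the 8 promoter windows of the 7 members, with the horizontal axis in bases from the RefSeq start. The GAS matches lie before an ISRE core in *Gbp7*, *Igtp* and *Irgm2*, and on either side of it in *Gbp5*.

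*Gbp2*, *Gbp3*, *Gbp5* and *Gbp7* lie in 1 cluster on chromosome 3. *Gbp3* (ENSMUSG00000028268, GRCm38 chromosome 3, 142560026 to 142573209) changed most of all members. Its levels in Pde2A-/- replicates A, B, 14, D and 15 were 7.62, 21.03, 16.5, 12.7 and 17.7 CPM. In Pde2A+/+ hearts the lowest was 1.26, the median 2.15 and the highest 2.58 CPM. The groups did not overlap, and even replicate A, the lowest Pde2A-/- heart, lay far above all Pde2A+/+ hearts. The log2 fold change was 2.85 (standard error 0.25), a 7.21-fold difference (edgeR, adjusted p = 1.17e-05).

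*Gbp7* (ENSMUSG00000040253, chromosome 3, 142530342 to 142550149), known for a part in assembling the phagocyte NADPH oxidase, had 13.4, 22.1, 21.003, 17.7 and 24.96 CPM in the 5 Pde2A-/- hearts in the same order. In Pde2A+/+ hearts it ranged from 4.10 to 10.01 CPM with a median of 5.46. The highest Pde2A+/+ value was that of replicate 7, and the others ended at 5.91 CPM. Its log2 fold change was 1.73 (standard error 0.21, edgeR, adjusted p = 1.82e-04), and 1.94 without that heart. *Gbp2* (ENSMUSG00000028270, chromosome 3, 142620602 to 142638008), a prenylated protein that coats and lyses bacteria in the cytosol, had 6.68, 10.6, 9.63, 9.94 and 13.1 CPM in Pde2A-/- hearts. Its lowest, median and highest Pde2A+/+ values were 2.71, 4.17 and 6.41 CPM, the last again in replicate 7. Replicate A and replicate 7 were thus close together, and the groups just did not overlap. The log2 fold change of *Gbp2* was 1.19 (standard error 0.20, edgeR, adjusted p = 0.00215), and 1.33 without replicate 7.

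*Gbp5* (ENSMUSG00000105504, chromosome 3, 142493978 to 142522344), known as a promoter of NLRP3 inflammasome assembly, was low, with 41 to 96 counts per Pde2A-/- heart and 17 to 50 per Pde2A+/+ heart. It had 1.07, 1.39, 2.14, 2.25 and 2.64 CPM in Pde2A-/- replicates A, B, 14, D and 15. The Pde2A+/+ hearts spread from 0.462 to 1.30 CPM with a median of 0.711. This was the only called member with overlap, by a single heart: replicate 7 lay above Pde2A-/- replicate A, and the next Pde2A+/+ heart had 0.870 CPM. The log2 fold change was 1.31 (standard error 0.29, edgeR, adjusted p = 0.0119), and 1.52 without replicate 7 (edgeR, adjusted p = 0.00394).

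*Gbp6* and *Gbp9* lie in the other cluster, on chromosome 5. *Gbp9* (ENSMUSG00000029298, chromosome 5, 105077630 to 105139539) was the most evenly expressed member. Its Pde2A-/- hearts had 20.8, 27.3, 22.4, 23.0 and 24.2 CPM in replicates A, B, 14, 15 and D, and its Pde2A+/+ hearts 10.4 to 14.2 CPM with a median of 11.2. The groups were well apart, although the log2 fold change of 1.0003 (standard error 0.09, edgeR, adjusted p = 2.08e-05) lay right at the limit of a 2-fold difference. *Gbp6* (ENSMUSG00000104713, chromosome 5, 105270702 to 105293698) varied most between Pde2A-/- hearts, where the highest was 4.44 times the lowest. It had 1.12, 1.86, 3.11, 4.02 and 4.99 CPM in replicates A, B, 14, D and 15, and 0.469 to 0.720 CPM with a median of 0.638 in Pde2A+/+ hearts. No heart overlapped, and the log2 fold change was 2.29 (standard error 0.33, edgeR, adjusted p = 6.66e-04). The level of *Gbp6* is uncertain. *Gm43302*, annotated on the same strand, covers 28.99% of its exons, and 67.3% of all stretches of 75 bases in its transcripts occur in another gene, so that reads there are counted for neither gene or mapped to several places. For the other members this share was 11.3% in *Gbp7*, 7.80% in *Igtp*, 4.78% in *Irgm2*, 3.61% in *Gbp9*, 2.06% in *Gbp3* and under 1% in the rest.

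Of the immunity-related GTPases, the 3 regulators rose and the effector *Iigp1* did not pass. *Irgm2* (ENSMUSG00000069874, chromosome 11, 58199618 to 58222782) had 14.4, 23.8, 23.2, 19.7 and 22.8 CPM in Pde2A-/- replicates A, B, 14, D and 15. The Pde2A+/+ hearts lay between 5.43 and 7.83 CPM with a median of 6.56, and replicate 7 was within the range of the others. The groups were separate by a wide margin, and the log2 fold change was 1.66 (standard error 0.13, edgeR, adjusted p = 6.75e-06). *Irgm1* (ENSMUSG00000046879, chromosome 11, 48861968 to 48871683), whose protein acts in autophagy and in the control of mycobacteria, was less abundant. Its Pde2A-/- levels were 3.11, 5.05, 4.93, 3.77 and 4.88 CPM, and its Pde2A+/+ levels 0.888 to 1.54 CPM with a median of 1.27. These groups did not overlap either, and the log2 fold change was 1.83 (standard error 0.18, edgeR, adjusted p = 2.53e-05).

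*Igtp* (ENSMUSG00000078853, chromosome 11, 58199556 to 58207591) had 7.33, 12.1, 12.1, 9.58 and 13.5 CPM in Pde2A-/- replicates A, B, 14, D and 15. Its Pde2A+/+ levels ran from 3.59 to 7.01 CPM with a median of 4.63. Here too the highest Pde2A+/+ heart, replicate 7, came close to the lowest Pde2A-/- heart, replicate A, without overlap, and the next Pde2A+/+ heart had 5.22 CPM. The log2 fold change was 1.17 (standard error 0.18, edgeR, adjusted p = 0.00123), and 1.30 without replicate 7. The exons of *Igtp* and *Irgm2* share 162 bases on the same strand, where reads count for neither.

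*Iigp1* (ENSMUSG00000054072, chromosome 18, 60376027 to 60392634) was the member with the smallest change. It had 12.5, 14.7, 9.36, 10.7 and 15.2 CPM in Pde2A-/- replicates A, B, 14, D and 15, and 6.33 to 11.6 CPM with a median of 9.65 in Pde2A+/+ hearts. The groups overlapped: replicates 14 and D lay below the highest Pde2A+/+ heart, and replicate A, the lowest Pde2A-/- heart for each of the other 9 members, was the middle one here. The log2 fold change was 0.42 with a 95% interval from 0.07 to 0.76 (edgeR, adjusted p = 0.101). The fitted changes of the other 9 members lay above this interval. The 95% intervals of *Gbp5* and *Gbp2* began at 0.68 and 0.76 and so reached it, and differences between members were not tested. Without Pde2A+/+ replicate 7, its log2 fold change was 0.49 (edgeR, adjusted p = 0.0729).

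**Figure D2:**
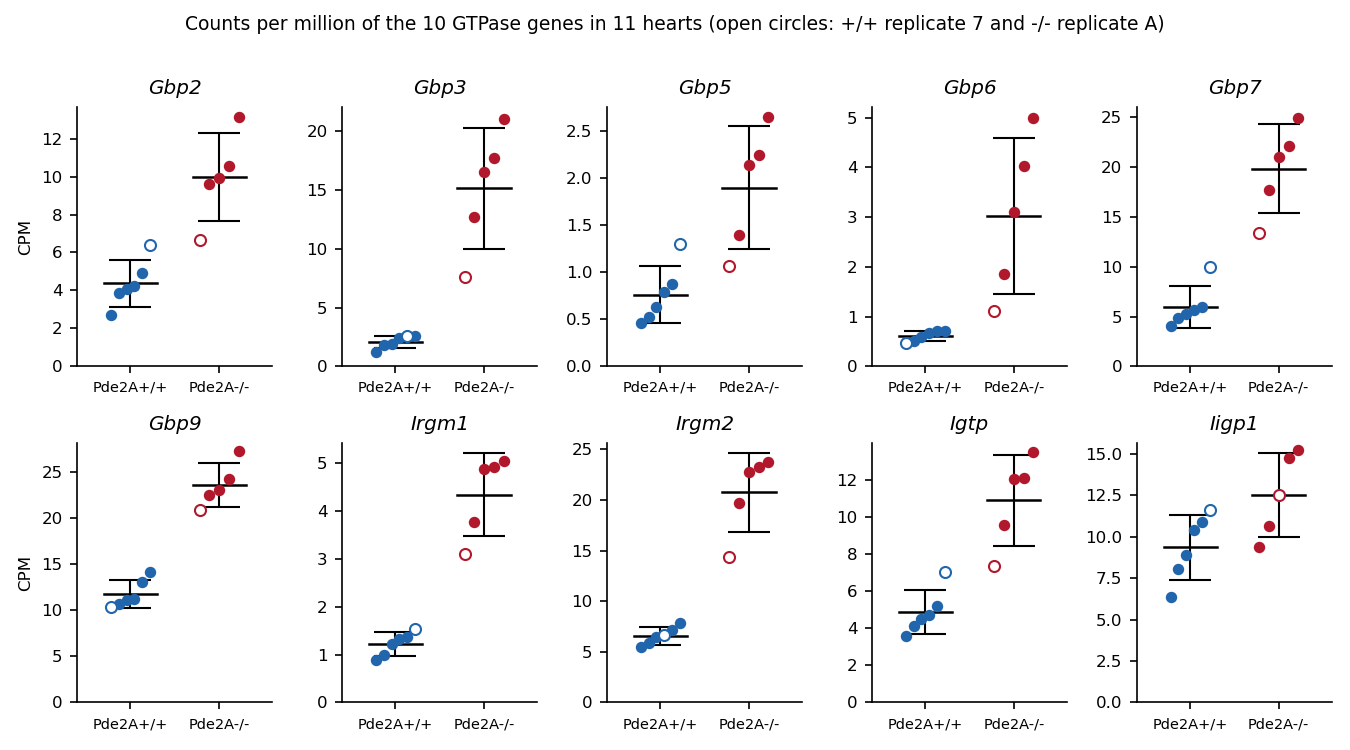
Levels of the 10 members (vertical axes, CPM on a linear scale from 0) in the 6 Pde2A+/+ hearts (blue) and the 5 Pde2A-/- hearts (red), with the mean and SD as lines. Open circles are Pde2A+/+ replicate 7, which is the highest of its group for 6 members, and Pde2A-/- replicate A, which is the lowest of its group for 9.

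Of the Pde2A-/- hearts, replicate A was the lowest of the 5 for 9 members, replicate 15 the highest for 6 and replicate B for 4. The order of the other hearts changed from member to member: replicate B was the highest for *Gbp3*, *Gbp9*, *Irgm1* and *Irgm2* but next to the lowest for *Gbp5* and *Gbp6*, where replicate D was next to the highest. The mean shift of the 10 members from the Pde2A+/+ mean was 0.95 on the log2 scale in replicate A, 1.51 in D, 1.59 in 14, 1.61 in B and 1.85 in 15. In Pde2A+/+ hearts it ran from −0.21 in replicate 11 to 0.33 in replicate 7, the heart with lymphocyte transcripts. That heart was the highest of its group for 6 members and the lowest for *Gbp6* and *Gbp9*, with 0.469 and 10.4 CPM. Replicate names are either letters or numbers, and the labels do not say what this marks. All 10 members were higher in Pde2A-/- hearts in both subsets, by 0.34 to 2.32 on the log2 scale among letter-named and by 0.43 to 3.19 among number-named hearts.

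Per kilobase of exon, a scale on which genes can be compared, the level in Pde2A+/+ hearts was highest for *Igtp*, with 2.40 ± 0.589 CPM per kb (SD, n = 6), and *Gbp9*, with 2.28 ± 0.293. *Irgm2*, *Gbp2* and *Iigp1* followed with 1.78, 1.74 and 1.61 CPM per kb, then *Gbp7* with 1.06 and *Gbp3* with 0.640. *Irgm1*, *Gbp5* and *Gbp6* closed the order with 0.210, 0.115 and 0.103 CPM per kb. The length used for *Gbp6* includes the stretches it shares with other genes, so that its level and rank on this scale are uncertain. *Igtp* and *Gbp9*, *Irgm2* and *Gbp2*, *Gbp2* and *Iigp1*, and *Gbp5* and *Gbp6* differed by less than the larger SD of each pair. In Pde2A-/- hearts the order was *Irgm2*, *Igtp*, *Gbp3*, *Gbp9*, *Gbp2* and *Gbp7*, from 5.63 ± 1.06 down to 3.53 ± 0.792 CPM per kb (SD, n = 5), with no pair of neighbours further apart than the larger SD. *Iigp1* came next with 2.15 ± 0.434, below *Gbp7* in 5 of 5 hearts, while in Pde2A+/+ hearts it was above *Gbp7* in 6 of 6. *Irgm1*, *Gbp6* and *Gbp5* were again lowest, between 0.748 and 0.286 CPM per kb. *Gbp3* moved from rank 7 to rank 3.

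Among 13899 genes outside all lists with a mean of at least 1 CPM, the 5 whose profile over the 11 hearts was nearest to the mean shift of the members were *Helz2*, *Plek2*, *Fermt3*, *Ddx58* and *Lgals9*. The measure was the root mean square of the difference in log2 CPM, 0.148 for *Helz2* and 0.199 for *Lgals9*. Among the members themselves, which make up that mean, it ran from 0.165 for *Irgm2* to 0.788 for *Iigp1* and 0.897 for *Gbp3*. The 5 genes were chosen by this measure, so that their rise follows from the choice. *Helz2* rose from 14.6 ± 0.691 to 42.1 ± 8.85 CPM, and *Lgals9*, which encodes galectin-9, from 39.3 ± 3.41 to 106.5 ± 18.5 CPM (SD, 6 and 5 hearts). *Ddx58*, the gene of the RNA sensor RIG-I, had a log2 fold change of 1.29, *Fermt3*, the gene of the blood-cell protein kindlin-3, 1.39, and *Plek2* 1.68.

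Other genes of the families were examined as a list of 20, of which 16 had enough counts. Of these, 8 rose and 1 fell at an adjusted p under 0.05, and 7 did not pass. Among all genes tested, 8.93% rose and 5.67% fell. *Gbp4* and *Gbp8*, neighbours of *Gbp9*, rose moderately. *Gbp4* had 13.3, 12.98, 10.999, 12.9 and 9.72 CPM in Pde2A-/- replicates A, B, 14, D and 15 against 6.51 to 7.89 CPM, so that its order among Pde2A-/- hearts was not that of the members, and its log2 fold change was 0.74 (standard error 0.10). *Gbp8* had 2.17 to 3.72 CPM against 1.23 to 1.98 CPM, a difference of 0.85 on the log2 scale (standard error 0.17). *Gbp11* had 13 to 36 counts per Pde2A-/- and 2 to 10 per Pde2A+/+ heart. *Gbp10* had 4 to 9 counts against 0 to 3, and 77.8% of its stretches of 75 bases occur in another gene. *Gbp2b* (also called Gbp1) was nearly absent, with 5 counts in all hearts.

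Of the further immunity-related GTPases, *Gm12250* (Irgb10), annotated as a processed pseudogene, which is known to act with guanylate-binding proteins on bacterial membranes, had 27 to 54 counts per Pde2A-/- and 2 to 21 per Pde2A+/+ heart, and differed by 1.63 on the log2 scale (standard error 0.36). *Gm4951* had 34 to 120 against 5 to 29 counts, a difference of 1.91 on the log2 scale (standard error 0.42), and *Gm5431* had 5 to 13 against 0 to 3 counts. *9930111J21Rik1*, *9930111J21Rik2*, *F830016B08Rik*, *Irgc1* and *Tgtp1* did not pass, with log2 fold changes of 1.61, 0.71, 0.80, 1.90 and −2.59. *Tgtp1* had 12 counts and its near-copy *Tgtp2* had 0. Of their stretches of 75 bases, 77.2% and 81.35% occur in another gene, mainly in each other. For *9930111J21Rik1* and *9930111J21Rik2* this share was 75.95% and 52.1%. The levels of these 4 genes are therefore uncertain, and low counts do not show that they were absent. *Irgq*, a constitutive member with no known interferon response, averaged 59.3 ± 5.04 CPM in Pde2A+/+ and 57.4 ± 4.31 CPM in Pde2A-/- hearts (log2 fold change −0.05, standard error 0.07).

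The very large inducible GTPases stood on chromosome 7, the chromosome of *Pde2a*. *Gm4070* had 13 to 34 counts per Pde2A-/- and 1 to 7 per Pde2A+/+ heart, and *Gvin1* had 0 counts in every Pde2A-/- and 1 to 6 in every Pde2A+/+ heart. They lie 4.38 and 4.64 Mb from *Pde2a*. Of their stretches of 75 bases, 96.7% and 98.3% occur in another gene, mainly in each other, so that their levels are uncertain. *Gm8995*, 4.99 Mb away, did not pass (log2 fold change 0.37, standard error 0.20, edgeR, adjusted p = 0.227), but rose by 0.56 without Pde2A+/+ replicate 7 (edgeR, adjusted p = 0.0321). For these genes, an effect of the loss of Pde2A and one of alleles inherited with the targeted locus cannot be told apart. None of the 10 members lies on chromosome 7. The median log2 fold change of the list was 1.23, and 1.61 without *Gvin1*, whose fitted value is no measure of size.

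**Figure D3:**
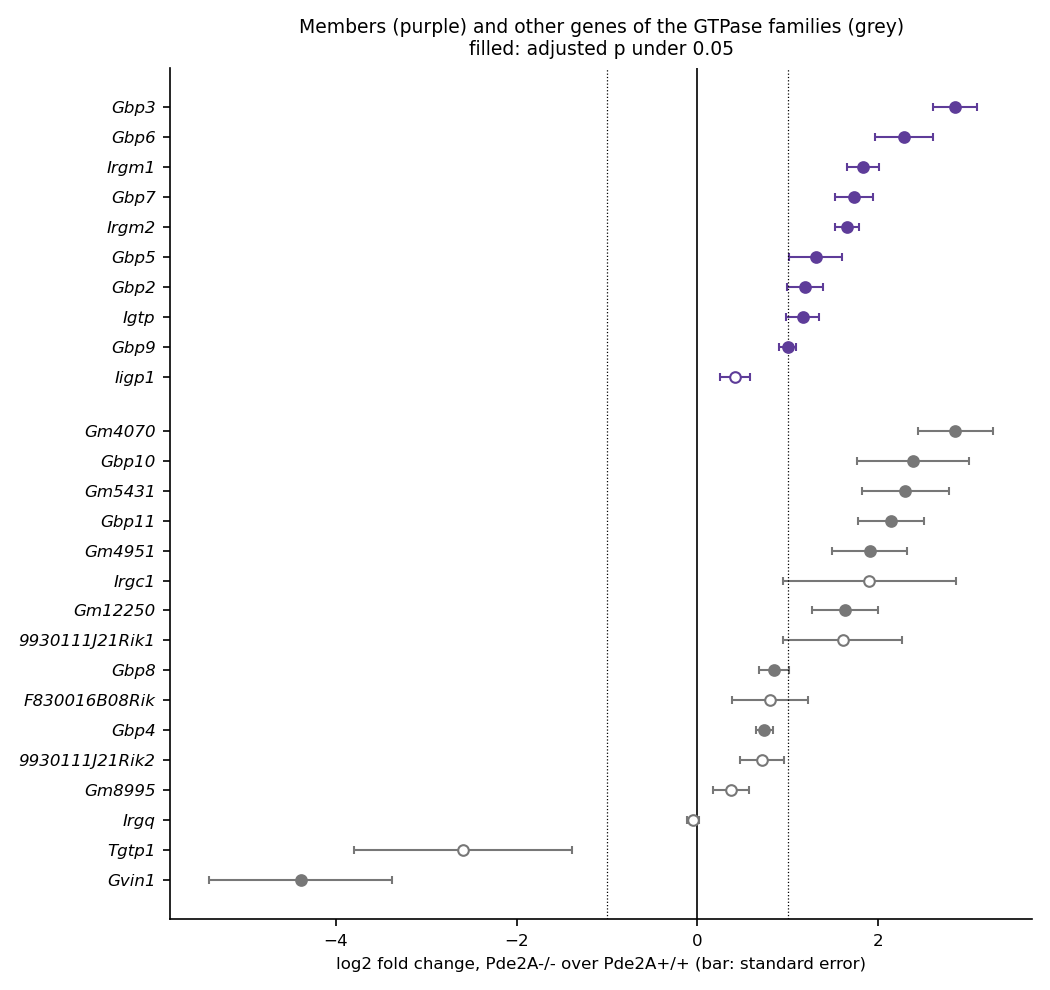
Log2 fold changes (horizontal axis, Pde2A-/- over Pde2A+/+, with standard errors) of the 10 members (purple) and 16 other genes of the GTPase families (grey), filled where the adjusted p was under 0.05, with dotted lines at a 2-fold difference. The values of *Gvin1* and *Tgtp1* rest on 15 and 12 counts in all.

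Transcripts of interferons were close to absent. Of 21 interferon genes, 18 had 0 counts in every heart, among them *Ifnb1* and all *Ifna* genes examined. A count of 0 allows up to 3 counts, which is 0.0708 to 0.0833 CPM in these hearts, for counting error only. *Ifng* had 1 count in each of Pde2A-/- replicates 14 and 15 and 0 in the other 9 hearts, Pde2A+/+ replicate 7 included. *Ifnz* had 10 counts, 7 of them in Pde2A-/- hearts, and *Ifnl3* had 1. A difference in interferon transcripts was not detectable at this depth.

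The receptor chains were expressed in all hearts and moved little. *Ifngr1*, the ligand-binding chain for interferon-gamma, rose from 29.9 ± 1.27 to 35.8 ± 3.32 CPM (log2 fold change 0.26, standard error 0.06, edgeR, adjusted p = 0.0158), and every Pde2A-/- heart lay above every Pde2A+/+ heart. *Ifnar2*, a chain of the type I receptor, rose by 0.33 on the log2 scale (standard error 0.08, edgeR, adjusted p = 0.0162), with overlap. *Ifngr2*, *Ifnar1*, *Il10rb* and *Ifnlr1* did not pass, with log2 fold changes from −0.06 to 0.21.

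Of the 8 transducers and transcription factors that act after the receptors, 6 rose and 0 fell, beside 8.93% and 5.67% of all genes. *Irf9* had 24.7, 40.6, 37.9, 32.6 and 44.2 CPM in Pde2A-/- replicates A, B, 14, D and 15 and 9.86 to 12.5 CPM in Pde2A+/+ hearts, a log2 difference of 1.66 (standard error 0.12, edgeR, adjusted p = 5.66e-06). Replicate A was the lowest Pde2A-/- heart, as it was for most members. *Stat2* rose by 0.64 and *Irf8*, a factor of macrophages and other myeloid cells, by 0.56 on the log2 scale. *Irf1* and *Jak2*, named after their values were seen, rose by 0.52 and 0.21. *Irf1* had 15.1 to 19.3 CPM in Pde2A-/- hearts and 9.35 to 11.8 CPM in 5 of the 6 Pde2A+/+ hearts. Its groups overlapped only through replicate 7, with 17.99 CPM, and its log2 fold change was 0.68 without that heart. *Tyk2* had the smallest difference, 0.03.

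Genes known above all for type I interferon moved in the same direction and further. Of 20 such genes, 18 rose and 0 fell, beside 8.93% and 5.67% of all genes. Their median log2 fold change was 2.61. *Isg15*, a ubiquitin-like modifier, had 7.73, 38.1, 31.3, 16.9 and 30.6 CPM in Pde2A-/- replicates A, B, 14, D and 15 and 0.740 to 1.33 CPM in Pde2A+/+ hearts, a log2 difference of 4.52 (standard error 0.36, edgeR, adjusted p = 7.41e-06). *Ifit1*, *Usp18* and *Ifi44* changed by 4.30, 4.20 and 4.16. *Ifit2* had the smallest change, 0.32, and did not pass (edgeR, adjusted p = 0.0512), and neither did *Isg20*. Replicate A was the lowest Pde2A-/- heart for 19 of the 20 genes. The counts were 18 again without Pde2A+/+ replicate 7, which was the highest Pde2A+/+ heart for 5 of them. These genes were chosen with the interferon response of these hearts already known, so their direction is no independent evidence.

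Genes known above all for interferon-gamma did not move together. Of 15 with enough counts, 1 rose, 1 fell and 13 did not pass, and the median log2 fold change was 0.01. Of all genes tested, 8.93% rose and 5.67% fell. Several genes of the list were barely detected. The stricter filter filterByExpr kept 9 of the 15, and *Ido1* and *Slamf8*, named after their values were seen, had 12 and 20 counts in all hearts. For such genes, not passing cannot be read as no response. *Fcgr1*, a macrophage Fc receptor, rose from 3.15 ± 0.411 to 7.19 ± 1.21 CPM (SD, 6 and 5 hearts), a difference of 1.19 on the log2 scale (standard error 0.13). *Nos2*, the inducible nitric oxide synthase, fell by 0.95 (standard error 0.23, edgeR, adjusted p = 0.0189) with overlap. *Batf2*, with 57 counts in all hearts, had the smallest difference, 0.01 (standard error 0.45), which is also the median of the list. This list depends on Pde2A+/+ replicate 7, which was the highest Pde2A+/+ heart for 10 of the 15 genes. Its summed level was 105.5 CPM in that heart, 20.2 to 23.3 CPM in the other Pde2A+/+ hearts and 23.4 to 45.7 CPM in Pde2A-/- hearts. Without it, 4 genes passed and the median was 0.22: *Fcgr1*, *H2-Ab1* and *Cxcl9* rose and *Nos2* fell. *H2-Ab1*, an MHC class II chain, had 3.91, 6.66, 13.4, 12.96 and 23.1 CPM in Pde2A-/- replicates A, B, 14, D and 15, 30.7 CPM in Pde2A+/+ replicate 7 and 2.55 to 4.27 CPM in the other Pde2A+/+ hearts. *Cd74*, *H2-Aa* and *Ciita*, the master regulator of this class, did not pass without that heart either, with log2 fold changes of 0.32, 0.17 and 0.61. *Cxcl9* had no more than 6 counts in any Pde2A-/- heart. Without Pde2A-/- replicate D, 1 gene passed.

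The members thus lay between the lists on the log2 scale, with a median of 1.48 beside 2.61 for the type I list and 0.01, or 0.22 without Pde2A+/+ replicate 7, for the interferon-gamma list. The lists differ in their levels and in the heart-to-heart spread of their genes, and the difference between them was not tested. In the promoter windows, ISRE cores occurred in 7 of 17 windows of the type I list and in 2 of 11 of the interferon-gamma list, and GAS cores in 3 and in 1 of these. The other GTPases of the families had ISRE cores in 6 of 9 windows and GAS cores in 4, so that these elements were not particular to the members.

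**Figure D4:**
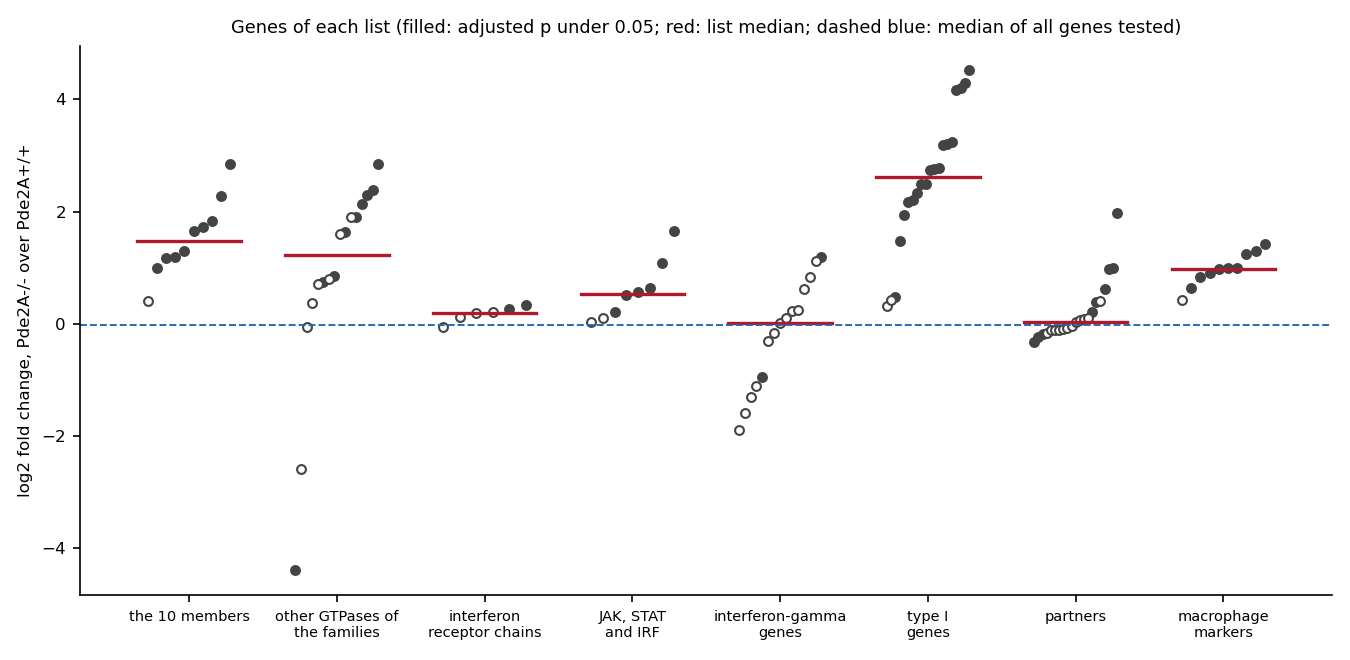
Log2 fold change of each gene tested (vertical axis, Pde2A-/- over Pde2A+/+) in 8 lists, filled where the adjusted p was under 0.05, with the median of each list in red and that of all genes tested as a dashed line. The type I list has the highest median, 2.61. The medians of the interferon-gamma list (0.01) and of the partners (0.03) lie near that of all genes, while single genes spread to both sides. Without Pde2A+/+ replicate 7 the median of the interferon-gamma list was 0.22.

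Proteins known to act with the members were examined as a list of 21 genes, covering the autophagy conjugation system that places these GTPases on membranes, prenylation enzymes and inflammasome components. Of these, 6 rose, 3 fell and 12 did not pass, beside 8.93% of all genes that rose and 5.67% that fell. The median log2 fold change was 0.03. The largest changes were those of 3 of the 5 inflammasome genes, *Casp4*, *Nlrp3* and *Casp1*, while the other 2, *Gsdmd* and *Aim2*, did not pass, with log2 fold changes of 0.41 and 0.07. *Casp4*, the gene of caspase-11, had 2.69, 4.01, 5.62, 4.39 and 5.15 CPM in Pde2A-/- replicates A, B, 14, D and 15 and 0.704 to 1.47 CPM in Pde2A+/+ hearts (log2 fold change 1.98, standard error 0.22, edgeR, adjusted p = 9.51e-05). *Nlrp3* and *Casp1* rose by 0.99 and 0.98 without overlap of the groups. *Gabarapl1*, an autophagy protein of the Atg8 family, rose by 0.62 with overlap. *Map1lc3b* had the smallest difference, 0.03. The 3 genes that fell, *Atg5*, *Icmt* and *Fnta*, named after their values were seen, changed by −0.31, −0.24 and −0.17. The number past the threshold was 5 without Pde2A-/- replicate 14 and 4 without replicate D.

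Markers of other cells were examined as well, beside the 8.93% of all genes that rose and 5.67% that fell. All 10 macrophage markers were above 0 in every heart, and 9 of them rose, with a median log2 fold change of 0.98. Their summed level was 243.7 to 321.1 CPM in Pde2A-/- and 116.1 to 190.1 CPM in Pde2A+/+ hearts. Among Pde2A+/+ hearts, replicate 7, the highest for 6 members, was not high in macrophage markers, with 135.6 CPM. Among Pde2A-/- hearts, replicate A, the lowest for 9 members, had the lowest sum, 243.7 CPM, and was the lowest for 8 of the 10 markers. All 7 neutrophil markers tested rose, from 0.758 to 9.73 CPM summed to 22.4 to 63.2 CPM, and 7 of 8 erythroid markers rose, from 124.6 to 516.9 CPM to 501.03 to 1014 CPM with overlap. Pde2A-/- replicate A was the lowest of its group for all 8 erythroid markers and for 0 of the 7 neutrophil markers. Of the 8 fibroblast markers 4 rose and 0 fell, with a median log2 fold change of 0.25. Of the 8 endothelial markers *Pecam1* and *Emcn* rose by 0.34 and 0.50 on the log2 scale and *Cldn5* changed by −0.79, with a median of 0.15. Of the 8 cardiomyocyte markers 0 rose and *Nkx2-5* fell, with a log2 fold change of −0.27 and a median over the list of −0.15. Of the 14 T and natural killer cell markers tested, 0 rose with all hearts and *Klrb1c* fell. Without replicate 7, *Klrb1c* did not pass (log2 fold change −1.41, edgeR, adjusted p = 0.0864) and *Lck* rose by 0.50 on the log2 scale. *Cd3e* was at 0 in all other hearts. In whole hearts, more cells of a type and more RNA per cell cannot be told apart, and the part of these cells in the rise of the members was not tested.

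**Figure D5:**
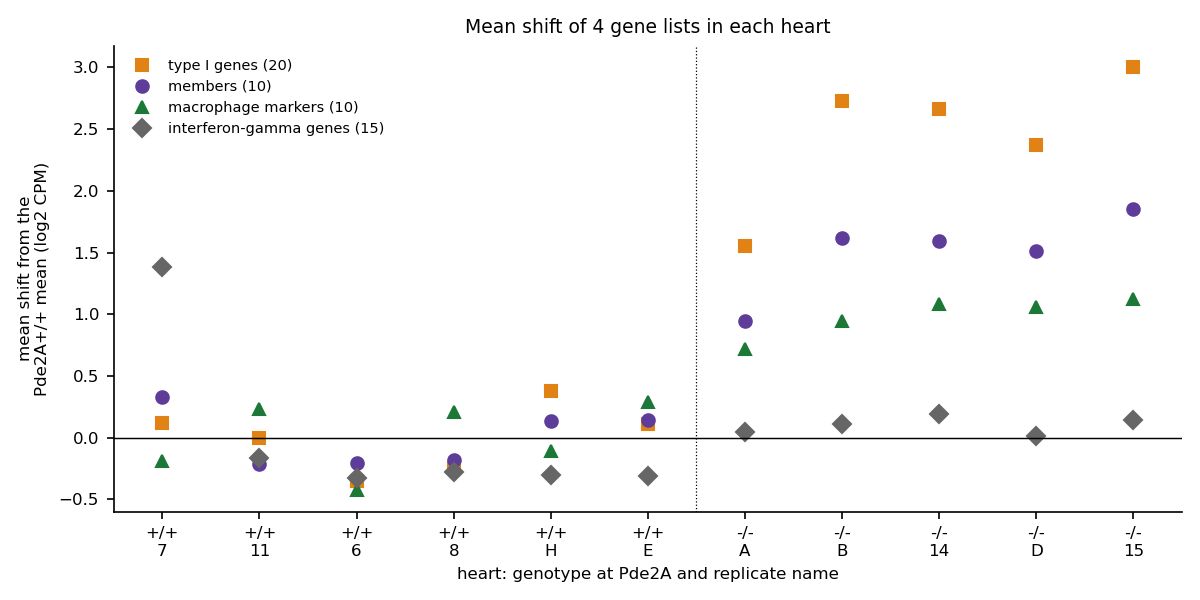
Mean shift of 4 gene lists from their mean in Pde2A+/+ hearts (vertical axis, log2 CPM) in each of the 11 hearts (horizontal axis). The members (circles) lie between the type I list (squares) and the macrophage markers (triangles) in all 5 Pde2A-/- hearts, and the interferon-gamma list (diamonds) is highest in Pde2A+/+ replicate 7.

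Reads on the opposite strand of the members were few. Over the 11 hearts they came to between 0.544% and 1.26% of the sense reads for 9 members and to 12.2% for *Gbp5*, with 4 to 12 reads per Pde2A-/- and 1 to 10 per Pde2A+/+ heart. No member had more than 14 such reads in a heart.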

How the data were processed

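RNA was extracted from hearts dissected at E14.5, and stranded poly(A) libraries were sequenced single-end on a NextSeq instrument. Reads were aligned by the authors with STAR to GRCm38 (mm10), and the deposited files give raw counts per gene in whole numbers, without normalization, for both strands together, the sense strand and the opposite one. The version of STAR and the read length are not given in the sources used here. Reads on more than 1 gene are in no count.

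Sense counts were used. Names and positions came from GENCODE M21, which held 55141 of the 55487 identifiers. A gene was kept with 10 counts or more summed over the 11 hearts. Counts were normalised by TMM and compared between genotypes, without covariates, by the quasi-likelihood test of edgeR 4.0.16 (R 4.3.3), with p-values adjusted by Benjamini-Hochberg over 24177 genes. A call needed a 2-fold difference or more besides an adjusted p under 0.05. The common coefficient of variation between hearts was 16.8%. The log2 CPM used a prior count of 2. Promoter windows were taken from RefSeq (GRCm38.p6), and sequences were aligned with Biopython 1.88. Python 3.11.15 with numpy 2.4.6 and pandas 2.3.3 made the tables, and matplotlib 3.10.9 the plots.

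The members and the gene lists were chosen with earlier results of these data known. The genes named are the members, *Pde2a*, the genes of the families, the interferons and receptors with 10 counts or more, up to 4 genes with the largest changes past the adjusted p and the 1 with the smallest change in each other list, and the 5 genes of nearest profile. The cell markers, the MHC class II genes, *Gsdmd*, *Aim2* and other genes said to be so were named after their values were seen. Alternatives were DESeq2 1.42.0 or its size factors, filterByExpr, no filter, reads of both strands, globins left out, naming style as covariate, a fold change of 1.5, and each heart left out in turn. Protein sequences were not analysed here, and 1 gene that the rule names is not reported here.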

Additional observations from a re-analysis of the deposited data

Results flagged for a closer look

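Each genotype was examined for a heart far from the others by Dixon's test at the 95% level, for the 10 members, 41 named genes of the lists and 16 summed lists. Of 134 groups, 5 were flagged, and about 1 in 20 would be by chance. None of the 20 groups of the members was among them. The summed interferon-gamma list had 105.5 CPM in Pde2A+/+ replicate 7 and 20.2 to 23.3 CPM in the other Pde2A+/+ hearts. The summed T and natural killer cell markers had 111.7 CPM in the same heart and 3.08 to 5.28 CPM in the others. The summed partners had 1409 CPM in Pde2A+/+ replicate 8 and 1356 to 1375 CPM in the others. *Fcgr1* had 5.12 CPM in Pde2A-/- replicate A and 7.36 to 8.26 CPM in the other Pde2A-/- hearts. *Tgtp1* had 0.0275 CPM, a single count, in Pde2A-/- replicate 15 and 0 in the others.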

How the results depend on the processing

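No paired analysis was possible because the labels give the genotypes no shared replicate numbers. Under 18 alternatives for each of the 10 members, all 180 log2 fold changes were above 0 and 179 kept their side of the threshold of an adjusted p of 0.05. The exception was *Iigp1*, which passed with DESeq2 (log2 fold change 0.41, adjusted p = 0.0459), where edgeR gave adjusted p-values between 0.0729 and 0.230 over the other alternatives. The number of members called was 8 or 9 under every setting, since *Gbp9* lay at the limit of a 2-fold difference, with log2 fold changes between 0.94 and 1.06. With each heart left out in turn, the number of members past the adjusted p was 9 throughout, that of the other GTPases of the families lay between 8 and 10, that of type I genes between 18 and 19, and that of transducers and receptors between 6 and 9. The number of interferon-gamma genes past it lay between 1 and 4, the extremes without Pde2A-/- replicate D and without Pde2A+/+ replicate 7. That of partners lay between 4 and 10, the lowest without Pde2A-/- replicate D and the highest without Pde2A-/- replicate A or B. The causes were not tested. At this depth *Gbp10*, *Gm5431*, *Gvin1* and the interferons had too few counts for a size of change to be read.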
